A study of Mus musculus with 12 samples.

Results

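Fc gamma receptors are the proteins with which macrophages bind the constant region of IgG antibodies. The 5 genes described here were taken by symbol from the deposited table of 24062 gene entries, and all 5 were found and passed the filter on low values. They are Fcgr1, Fcgr4 and Fcgr3, which encode activating receptors, Fcgr2b, which encodes the inhibitory receptor, and Fcer1g, which encodes the signalling gamma chain. Messenger RNA was measured in bulk in primary bone marrow derived macrophages of wild-type C57Bl/6 mice at passage 1, in 4 groups of 3 libraries. Cells received no stimulation, the STING inhibitor C-178 alone, the STING agonist CMA alone, or C-178 and CMA together, and the study gives 2 h as the treatment time. STING is the adaptor protein that relays the sensing of cytosolic DNA to type I interferon and NF-kappaB. C-178 binds mouse STING covalently, and CMA is a small molecule that activates mouse but not human STING. The doses are not stated in the labels. The sources do not say whether the 3 libraries of a group came from separate cultures or animals, so p-values measure only the spread between these samples, which may be technical.

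In the mouse, the receptors encoded by Fcgr1, Fcgr3 and Fcgr4 reach the cell surface with a dimer of the gamma chain, whose ITAM (a short tyrosine motif) is phosphorylated by Src-family kinases and then recruits the kinase Syk. Uptake of antibody-coated particles, the oxidative burst and cytokine release follow from this signal. The Fcgr2b receptor carries its own inhibitory motif, the ITIM, which recruits the lipid phosphatase SHIP and dampens the signal when both kinds of receptor are bound together. Fcgr1 binds monomeric IgG with high affinity, and the others bind mainly immune complexes. Interferons are known to raise Fcgr1 and Fcgr4 in macrophages, and the balance of activating and inhibitory receptors sets how strongly a macrophage answers to IgG.

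Fcgr1 lies alone on chromosome 3 (chr3:96282909-96293969, minus strand). The other members lie near each other on chromosome 1, with Fcgr2b at chr1:170958617-170976547 on the minus strand, Fcgr4 at chr1:171018920-171029761 on the plus strand, Fcgr3 at chr1:171051174-171064935 on the minus strand and Fcer1g at chr1:171229572-171234365 on the minus strand. These spans are those of GENCODE M21 on GRCm38, the assembly that mm10 names. Transcripts of Fcgr2b and Fcgr3 share a stretch of 129 identical bases, and 10.2% of the 50-base words of the Fcgr3 transcripts also occur in Fcgr2b. Reads from that stretch could be counted for either gene, so the values of Fcgr2b and Fcgr3 carry an uncertainty that the SD does not show. For all other pairs of members the longest shared run was at most 14 bases. An annotated antisense transcript overlaps Fcgr2b, and no source used here gives the strand setting of the counting.

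The 250 bases before the RefSeq start of Fcgr1 and of Fcgr4 (build GRCm38.p6) are shown because these were the members that changed most with CMA. Capitals mark matches to 4 motifs searched on both strands, namely GAS (TTCNNNGAA), a motif known from interferon gamma responsive promoters, an ISRE-like motif (GAAA, any 2 bases, GAAA), which interferon regulatory factors bind, a PU.1-like motif (GAGGAA, or TTCCTC on the other strand), and a kappaB-like motif (GGGANNTCC). The Fcgr1 window is chr3:96293970-96294219 on the minus strand and the Fcgr4 window is chr1:171018676-171018925 on the plus strand, each written 5′ to 3′ on the strand of its gene.
Fcgr1: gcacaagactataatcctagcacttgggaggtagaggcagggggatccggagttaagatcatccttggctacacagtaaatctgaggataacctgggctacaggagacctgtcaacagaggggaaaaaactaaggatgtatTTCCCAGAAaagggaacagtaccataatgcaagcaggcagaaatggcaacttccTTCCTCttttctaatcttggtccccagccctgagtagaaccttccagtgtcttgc
Fcgr4: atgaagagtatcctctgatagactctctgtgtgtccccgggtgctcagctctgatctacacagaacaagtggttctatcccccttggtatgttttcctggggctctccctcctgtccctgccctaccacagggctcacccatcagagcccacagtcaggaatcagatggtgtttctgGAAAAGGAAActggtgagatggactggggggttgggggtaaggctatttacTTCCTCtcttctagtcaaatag
The Fcgr1 window held a GAS match 109 bases before the start and a PU.1-like match 55 bases before it. The Fcgr4 window held an ISRE-like match 73 bases before the start and a PU.1-like match 22 bases before it. In Fcgr3 the PU.1-like match stood 6 or 15 bases before the start, depending on which of the RefSeq starts was taken. The windows of Fcgr2b and Fcer1g held none of the 4 motifs, and the kappaB-like motif was found in none of the 5 genes. Among 32851 promoter windows of the same length, 7.02% held the GAS, 2.98% the ISRE-like, 23.25% the PU.1-like and 3.59% the kappaB-like motif. A match is a run of letters and was not tested for binding here.

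Libraries held between 7.05 and 36.4 M reads, and all CMA libraries (7.13 to 7.83 M) were shallower than all unstimulated libraries (13.9 to 17.4 M). The fewest reads behind any member value were 493, for Fcgr2b in library 3 of the C-178 group. Of 10 macrophage markers fixed for the check, with Fcgr1 left out, 9 were found and all 9 exceeded 100 normalised counts in each group. Mast cell and basophil markers, of interest because those cells also use the gamma chain, summed to between 7.6 and 51.4 normalised counts per library, and those of dendritic cells to at most 35.7. Neutrophil markers summed to between 2237 and 3367 normalised counts. Of the 8 found, 4 or 5 exceeded 100 in each group, and Csf3r made up most of the sum (group means 1658 to 1898). Fibroblast markers summed to between 353 and 1089.5, and Cd79b and Cd4 were the only B cell or T and NK cell markers above 100. By group, fibroblast markers summed to 506 to 512 without stimulation, 588.7 to 769.1 with C-178 alone and 597 to 1089.5 with CMA alone. With C-178 plus CMA they summed to 353 to 796.7. Means of Col1a1, Col1a2, Col3a1 and Dcn were higher with CMA than without stimulation, and that of Pdgfra was lower (11.7 against 15.5). The part of these markers in the results was not tested. The extraction protocol in the labels names embryonic fibroblasts instead of macrophages. Library 3 of the C-178 plus CMA group stood furthest from its group (SD of 0.69 log2 units around the mean of the other libraries of that group), and its deviations ran with transcript length across 10917 genes (Spearman rho -0.38). Library 2 of that group deviated the opposite way (SD 0.57, rho 0.46). For some comparisons of members, the result without one of these libraries is also given below. Results of neighbour and pathway genes in that group are given only with all its libraries.

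Without stimulation all members were expressed, and the gamma chain gene far exceeded the receptors. Per kilobase of exon, the scale on which genes can be compared, Fcer1g stood at 30695 ± 3814 normalised counts (SD, n = 3). Fcgr3 followed at 2481 ± 102, Fcgr4 at 1794 ± 113, Fcgr1 at 817 ± 73.0 and Fcgr2b at 188 ± 6.0. No neighbours in this order overlapped in the unstimulated libraries. The length of Fcgr2b depends on the transcript in use, and by its shortest coding transcript its level would be 661 per kilobase, still below Fcgr1.

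The libraries with CMA were first set against the unstimulated ones, for the effect of the agonist by itself. Fcgr1 and Fcgr4 rose to more than 5 times their unstimulated level, the inhibitory Fcgr2b rose less, and the gamma chain gene did not pass the test. In bulk RNA, a change in the number of cells that express a gene and a change in RNA per cell cannot be told apart. Of the 5 members 3 were called, all of them higher, where 37.3% of the 11440 genes tested were called and 19.4% were called higher.

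Fcgr1, the high-affinity receptor gene, stood at 2328, 1965 and 2056 normalised counts in the unstimulated libraries and at 11685.5, 12547 and 12459 in the CMA libraries. The groups were far apart, and all CMA libraries were high. The group means were 2116 ± 189 and 12231 ± 474 (SD, n = 3), a 5.78-fold difference and a log2 change of 2.53 ± 0.12 (SE, limma, Benjamini-Hochberg adjusted p = 1.37e-09).

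Fcgr4, whose receptor binds IgG2a and IgG2b complexes, stood at 2113, 2398 and 2250.5 without stimulation and at 10029, 12734 and 11228 with CMA. Again all CMA libraries lay well above all unstimulated ones. Means were 2254 ± 142 and 11330.4 ± 1356, a 5.03-fold difference, and the log2 change was 2.32 ± 0.13 (limma, adjusted p = 7.03e-09).

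Fcgr2b, the inhibitory receptor gene, stood at 715, 694 and 739.6 without stimulation and at 1020.2, 1318 and 1257 with CMA. The groups did not overlap, and the smallest CMA value was 1020.2. The means differed 1.67-fold (716 ± 22.9 and 1199 ± 158), and the log2 change was 0.73 ± 0.15 (limma, adjusted p = 0.00118).

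Fcgr3, the low-affinity activating receptor gene, stood at 3304, 3228 and 3494 without stimulation and at 4674, 4820 and 4284 with CMA. The CMA libraries were all higher, yet the log2 change of 0.46 ± 0.22 did not pass the test when all 12 libraries shared a spread (limma, adjusted p = 0.114, 95% interval -0.01 to 0.92). That shared spread holds the wide C-178 plus CMA group. With only the 6 libraries compared, the adjusted p was 0.00019, and it was 0.00533 without library 3 and 0.044 without library 2 of the C-178 plus CMA group. After quantile normalisation the log2 change of Fcgr3 was 0.02. Groups of 4 of the 5 members thus did not overlap, as was the case for 61.8% of all genes tested.

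Fcer1g, the gamma chain gene, stood at 19732, 24002 and 25145 without stimulation and at 22074, 24251 and 22235 with CMA. These ranges overlapped throughout, and the 95% interval of the log2 change ran from -0.4 to 0.4 (limma, adjusted p = 0.999). Quantile normalisation, which lowered the median change of all genes to -0.115, gave Fcer1g a log2 change of -0.68 (limma, adjusted p = 0.0115). It gave Fcgr1 2.02, Fcgr4 1.82 and Fcgr2b 0.57, each smaller than in the main fit. Normalised counts summed to 12.9 to 14.06 M per CMA library and 10.23 to 10.57 M per unstimulated library. The size of these changes thus depends on the scaling, and the part of the unlike totals was not tested.

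**Figure D1:**
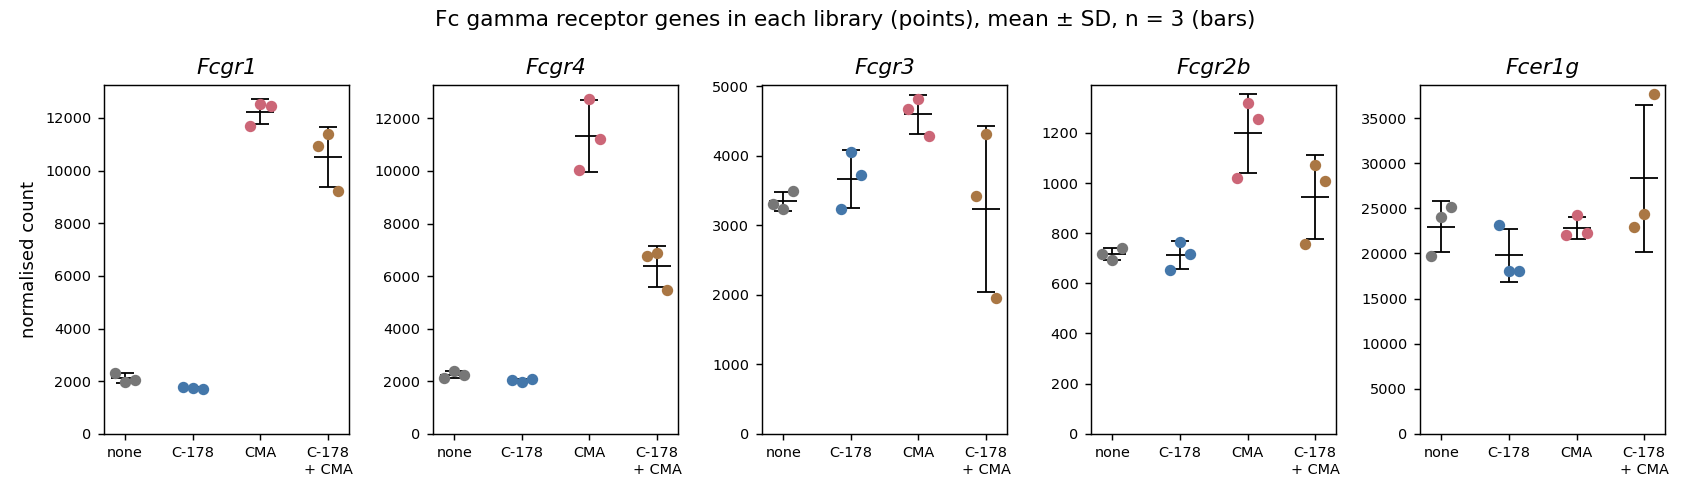
Normalised counts (vertical axes, each from 0 and on its own scale) of the 5 genes in every library (points) under no compound, C-178, CMA and C-178 plus CMA, with mean ± SD of 3 libraries as bars. Fcgr1 and Fcgr4 lay between 1704 and 2398 in the 6 libraries without CMA and at 5487 or more in the 6 with it, and library 3 of the C-178 plus CMA group holds the lowest Fcgr3 value and the highest Fcer1g value.

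The effect of the inhibitor in the absence of an agonist was read from the C-178 and the unstimulated libraries. None of the 5 members was called by limma, edgeR or DESeq2, and 1 of them had an unadjusted limma p under 0.05. In this comparison limma called 0.0962% of all genes, and 420 of the 11440 tested had an unadjusted limma p under 0.05. Of all genes, edgeR called 12 higher and 1 lower, and DESeq2 34 higher and 4 lower. Fcgr1 stood at 1779.6, 1746.5 and 1704 with C-178, all below the unstimulated libraries, with a log2 change of -0.28 ± 0.12 (limma, unadjusted p = 0.0324, adjusted p = 1). Fcgr4 stood at 2038.5, 1959 and 2079, also all below the unstimulated libraries (log2 change -0.15 ± 0.13). Groups of these 2 members did not overlap, as for 15.6% of all genes. The 95% intervals were -0.52 to -0.03 for Fcgr1, -0.42 to 0.12 for Fcgr4, -0.33 to 0.59 for Fcgr3, -0.32 to 0.3 for Fcgr2b and -0.62 to 0.19 for Fcer1g, so changes of the size that CMA gave in Fcgr1 and Fcgr4 lay outside them.

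How much of the response remained under the inhibitor was read in 2 ways, from the combined treatment set against CMA alone and from the effect of CMA with and without C-178. Fcgr4 was lowered by C-178 in the presence of CMA but stayed well above its level without CMA. For Fcgr1 no difference of the CMA response with and without C-178 passed the test, and its interval is given below. Of the 5 members 1 was called against CMA alone, and it was lower, where 24.1% of genes were called, 10.6% higher and 13.5% lower.

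Fcgr4 stood at 6757, 6889.6 and 5487 with C-178 plus CMA. All of these lay below the CMA libraries (10029 to 12734) and above the libraries with C-178 alone (1959 to 2079). Against CMA the mean was 1.78-fold lower (6378 ± 774 against 11330.4 ± 1356), with a log2 change of -0.83 ± 0.13 (limma, adjusted p = 0.000733). Without library 3 of the combined group that change was -0.72 (adjusted p = 0.00104), and without library 2 it was -0.89. Against C-178 alone Fcgr4 was 3.15-fold higher (log2 change 1.65 ± 0.13, limma, adjusted p = 4.83e-07). The log2 change by CMA was thus 2.32 without and 1.65 with C-178, or 70.9% of its size. The difference of these changes, the interaction, was -0.68 ± 0.18 (limma, adjusted p = 0.0326). It was the only interaction called among the 5 members, where 9.94% of genes were called, 3.95% of all genes in the positive and 5.99% in the negative direction. The call was kept in 13 of 21 alternative fits (adjusted p 0.00609 to 0.129). It was lost after quantile normalisation and without any of 7 single libraries, namely each unstimulated library, C-178 libraries 2 and 3, and CMA libraries 2 and 3, with -0.59 to -0.72 as the log2 interaction in those fits without a library. The sign was negative in all 21.

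Fcgr1 stood at 10919, 11373 and 9215 with C-178 plus CMA, each below the lowest CMA library (11685.5). The difference from CMA alone, a log2 change of -0.22 ± 0.12, did not pass the test (limma, adjusted p = 0.164, 95% interval -0.47 to 0.02), and after quantile normalisation it was 0.08. It was -0.13 without library 3 of the combined group and -0.29 without library 2 (adjusted p = 0.378 and 0.0675). Against C-178 alone Fcgr1 was 6.02-fold higher (10502 ± 1138 against 1743.5 ± 37.7, log2 change 2.58 ± 0.12, limma, adjusted p = 3.05e-09). This was 102% of the log2 change without C-178, and the interaction was 0.05 ± 0.16 (limma, adjusted p = 0.851, 95% interval -0.3 to 0.4), with 0.14 without library 3 and -0.01 without library 2. A loss of the Fcgr1 response of more than 0.3 log2 units through C-178 lay outside that interval. Groups of 2 members, Fcgr1 and Fcgr4, did not overlap between C-178 plus CMA and CMA, against 35.5% of all genes.

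The difference between Fcgr4 and Fcgr1 can be read within each library, where depth cancels. The log2 ratio of Fcgr4 to Fcgr1, a ratio chosen after its values were seen, was -0.22, 0.02 and -0.15 in the CMA libraries and -0.69, -0.72 and -0.75 in the C-178 plus CMA libraries. The groups did not overlap, and the mean ratio was 0.66 times that with CMA alone (log2 difference -0.6, exact two-sided permutation p = 0.1, the smallest that 3 against 3 libraries allow). Between C-178 alone and no stimulation the same ratio differed by 0.12 (exact permutation p = 0.5).

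The other members were less clear. Fcgr2b stood at 756, 1071 and 1007 with C-178 plus CMA. The highest of these lay within the CMA range (1020.2 to 1318), and the lowest, in library 1, lay within the range with C-178 alone (655 to 766). Its log2 change was -0.35 ± 0.15 against CMA (limma, adjusted p = 0.0926) and 0.39 ± 0.15 against C-178 (adjusted p = 0.0631). Against C-178 alone, Fcgr2b passed in 4 of 24 alternative fits, among them the fit with the replicate number as a block (adjusted p = 0.0491), edgeR (0.0434) and DESeq2 (0.0433), and without library 1 of the C-178 plus CMA group its log2 change was 0.55 (adjusted p = 0.01). Against CMA it passed in 1 of 24, without library 2 of the C-178 plus CMA group (-0.45, adjusted p = 0.0291), and without library 1 of that group the change was -0.2 (adjusted p = 0.291). The interaction was -0.34 ± 0.21 (limma, adjusted p = 0.268), with -0.19 without library 1 and -0.44 without library 2 (adjusted p = 0.478 and 0.109).

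Fcgr3 stood at 3423, 4311 and 1956 with C-178 plus CMA, the widest spread of any member in any group (CV 36.8%). Library 3 held the lowest and library 2 the highest value. Against CMA the log2 change was -0.58 ± 0.22 (limma, adjusted p = 0.0644), and it was -0.26 without library 3 (adjusted p = 0.171) and -0.83 without library 2 (adjusted p = 0.00434). Against C-178 alone the change was -0.25, and 0.07 without library 3. The interaction was -0.71 ± 0.3 (limma, adjusted p = 0.132), -0.39 without library 3 and -0.96 without library 2 (adjusted p = 0.0137). No direction is read for Fcgr3 with C-178 plus CMA.

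Fcer1g stood at 22925, 24402 and 37652 with C-178 plus CMA, the last again in library 3. Library 1 lay within the CMA range, library 2 just above it, and library 3 above all other libraries of the study. The log2 change was 0.27 ± 0.19 against CMA (limma, adjusted p = 0.287), with 0.05 without library 3, 0.36 without library 2 and 0.41 without library 1, and none of 24 alternative fits called it. Against C-178 alone it was 0.49 ± 0.19 (limma, adjusted p = 0.0685). It was called there in 4 of 24 alternative fits, namely without library 1 of the combined group (0.62, adjusted p = 0.0323), without its library 2 (0.58, adjusted p = 0.0378), without library 1 of the C-178 group (0.61), and with DESeq2 (0.51, adjusted p = 0.0307). Without library 3 of the combined group it was 0.27 (adjusted p = 0.196), and after quantile normalisation 0.03 (adjusted p = 0.934). In library 3, relative to the other libraries of its group, genes with transcripts of up to 2563 bases lay 0.27 log2 units higher at the median, and the median deviation of genes with transcripts of at least 7688 bases was -0.39. The deviation of Fcer1g, with a short transcript, was 0.67, and that of Fcgr3, also short, was -0.97. The part of transcript length in these values was not tested.

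Between the combined treatment and C-178 alone, 2 of the 5 members were called, Fcgr1 and Fcgr4, both higher, where 26.1% of genes were called, 13.5% higher and 12.6% lower. Their groups were also the ones without overlap, as for 34% of all genes. Between C-178 plus CMA and no stimulation the same 2 were called, Fcgr1 at 4.96-fold and Fcgr4 at 2.83-fold, where 21.5% of genes were called, 11.1% higher and 10.5% lower. Groups of Fcgr1, Fcgr4 and Fcgr2b did not overlap there, as for 34.5% of all genes. These comparisons share the C-178 plus CMA libraries.

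**Figure D2:**
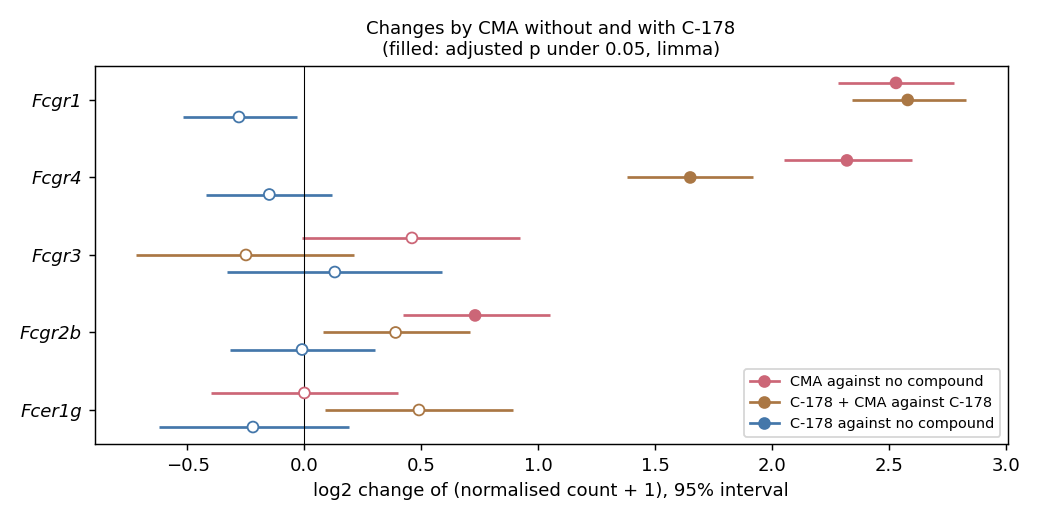
Log2 change of normalised count + 1 (horizontal axis) for each compound against none and for both compounds against C-178, with 95% intervals from limma over 12 libraries as lines. Filled points have an adjusted p under 0.05. The Fcgr1 points with and without C-178 lie at 2.58 and 2.53, while those of Fcgr4 lie at 1.65 and 2.32.

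The make-up of the receptor message differed between groups. Per kilobase, Fcgr3 held 45.7% to 48.3% of the summed level of the 4 Fcgr genes in the unstimulated libraries and 49.1% to 55.3% with C-178, ahead of Fcgr4 in each of these 6 libraries. With CMA, Fcgr4 came first at 49.2% to 53.6%, Fcgr1 second at 25.6% to 27.9%, and Fcgr3 held 18.4% to 21.4%. With C-178 plus CMA, Fcgr4 held 41.1% to 45.3% and Fcgr1 32.9% to 36.9%, so that Fcgr1 took a larger share than in any CMA library and Fcgr4 a smaller one. Fcgr2b held between 1.6% and 3.7% throughout, by the length of all its coding exons together. By its shortest coding transcript, its unstimulated level would be 661 rather than 188 per kilobase. Its share would then be larger and those of the other receptor genes smaller. As shares sum to 100%, a rise of one lowers the others.

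**Figure D3:**
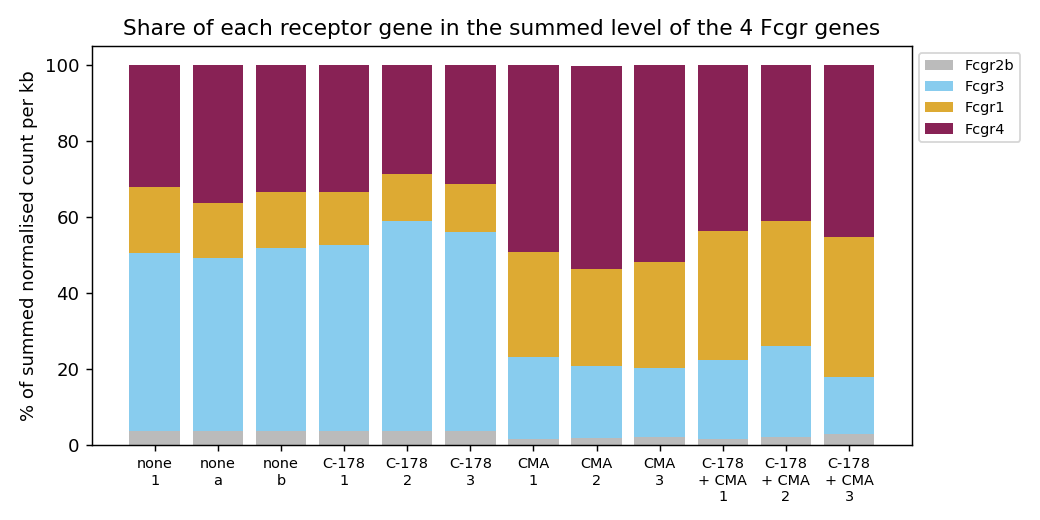
Share of each of the 4 receptor genes (colours) in their summed normalised count per kilobase of exon (vertical axis, percent) in each of the 12 libraries (horizontal axis). Fcgr2b is scaled by all its coding exons together, and its share would be larger by its shortest coding transcript. Fcgr3 leads in the 6 libraries without CMA and Fcgr4 in the 6 libraries with it, and the Fcgr1 share is largest in the C-178 plus CMA libraries (32.9% to 36.9%).

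Activating receptor message was also set against the inhibitory one within each library. The log2 ratio of Fcgr1 to Fcgr2b was 1.7, 1.5 and 1.47 in the unstimulated libraries and 3.52, 3.25 and 3.31 with CMA, a 3.48-fold higher ratio without overlap (exact two-sided permutation p = 0.1, the smallest possible). With C-178 plus CMA it was 3.85, 3.41 and 3.19, which overlapped the CMA libraries (exact permutation p = 0.7) and lay 4.57-fold above C-178 alone. The Fcgr4 to Fcgr2b ratio was 3.01-fold higher with CMA than without stimulation, at 3.3, 3.27 and 3.16 against 1.56, 1.79 and 1.6. With C-178 plus CMA it stood at 3.16, 2.68 and 2.44, and its lowering against CMA (log2 difference -0.48) had an exact permutation p of 0.2. The Fcgr3 to Fcgr2b ratio went the other way, at 0.83 times its unstimulated value with CMA (1.94 ± 0.22 against 2.22 ± 0.02, exact permutation p = 0.1), though shared reads make this pair the least certain. Over the 20 ratio contrasts computed, the smallest Benjamini-Hochberg adjusted exact permutation p was 0.143, and none can pass 0.05 at this group size.

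Gamma chain message relative to activating receptor message was lower in the CMA libraries. Per kilobase, Fcer1g was 5.24 to 6.49 times the sum of Fcgr1, Fcgr3 and Fcgr4 without stimulation and 1.75 to 1.85 times with CMA. With C-178 plus CMA the ratio was 2.53, 2.49 and 5.37, the last in library 3. It was above 1 in all 12 libraries. As each receptor pairs with a dimer of the gamma chain, a ratio above 1 does not show an excess of it. Other receptors also use the gamma chain, and protein was not measured.

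Among 8196 genes with a mean of at least 100, those whose log2 values followed each member most closely over the 12 libraries were listed. The libraries fall into groups with and without CMA, so these correlations hold the difference between groups and are given as a description. Fcgr1 was followed by Ifit3, an interferon-induced antiviral gene (Pearson r = 0.998), Themis2 (0.997) and I830012O16Rik (0.997). Fcgr4 was followed by Sgcb and by Ccrl2, a chemoattractant receptor gene (each 0.995), and by an entry whose name had been turned into a date. Fcgr2b was followed by Tank, an adaptor of TBK1 signalling (0.984), Irak2, a kinase of Toll-like receptor signalling (0.974), and Ppp2r2a (0.972). Fcgr3 was followed by Gcc2 (0.977), Pkd2 (0.973) and Smc2 (0.962), and Fcer1g by l7Rn6 (0.946), Il18bp (0.945) and Psmb2 (0.944). Between members, Fcgr1 and Fcgr4 had r = 0.97, and Fcgr3 and Fcer1g had r = -0.64.

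The chromosomal neighbours of the members were also read. Of 28 other genes whose start lies within 100 kb of the start of a member, 12 were tested. With CMA, B4galt3, a galactosyltransferase gene near Fcer1g, rose (log2 change 1.31 ± 0.13, limma, adjusted p = 2.12e-06) and Hist2h2be, a histone gene near Fcgr1, fell (-1 ± 0.29, adjusted p = 0.0153), while the other 10 were not called, where 37.3% of all genes were called, 19.4% higher and 17.9% lower. The median change of the 12 was -0.06. With C-178 plus CMA against CMA, B4galt3 was lower (-1.01) and Sdhc, a subunit of succinate dehydrogenase, higher (0.53), so that 2 of the 12 were called, where 24.1% of all genes were.

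Genes that act with the receptors were taken from lists of the pathway. Over 97 distinct genes tested, 43 were called with CMA against no stimulation, where 37.3% of all genes were, 19.4% higher and 17.9% lower. Of 8 proximal kinases tested, 3 fell and 0 rose (median log2 change -0.08, against -0.01 over all genes). Syk, the kinase recruited to the ITAM, fell (-0.65 ± 0.13, limma, adjusted p = 0.001), as did Fgr (-0.64 ± 0.16) and Tec (-0.36 ± 0.12). Of 18 adaptors and effectors, 3 rose and 5 fell (median -0.04). The adaptor Lcp2, known as SLP-76, rose by 1.86 ± 0.16, while Blnk fell by 1.13, Vav2 by 0.98 and Prkcd by 0.69. Of 22 cytoskeleton and oxidase genes, 4 rose and 4 fell (median -0.14). Cybb, the catalytic subunit of the phagocyte oxidase, rose by 1.16 ± 0.17, as did the phospholipase gene Pla2g4a (0.59) and the small GTPase gene Arf6 (0.51), while Marcks, an actin-binding substrate of protein kinase C, fell by 0.72 ± 0.15. The other four were named after their values were seen. Of these Ncf1, a cytosolic subunit of the same oxidase, fell by 0.42 ± 0.13 (limma, adjusted p = 0.0186), as did the actin regulators Wasf2 (-0.55) and Limk1 (-0.47), and Elmo1 rose by 0.42 (adjusted p = 0.0467). The oxidase subunits Ncf4 (-0.37, adjusted p = 0.0672) and Cyba (0.16, adjusted p = 0.475), also named after their values were seen, did not pass.

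Of 12 inhibitors of the pathway, 7 fell and 2 rose with CMA (median -0.53), where 17.9% of all genes were called lower and 19.4% higher. The lipid phosphatase gene Inppl1 fell by 1.06 ± 0.11, the adaptor gene Dok2 by 1.57 ± 0.19 and Sirpa, the receptor for the CD47 signal, by 0.94 ± 0.13, while Pag1 rose (1.33 ± 0.21). Chosen after their values were seen, Inpp5d, which encodes SHIP, fell by 0.31 ± 0.11 (limma, adjusted p = 0.0344) and Ptpn6, which encodes SHP-1, by 0.92 ± 0.15. With C-178 plus CMA against CMA, 3 of the 12 inhibitors were higher and 1 lower (median 0.33), where 24.1% of all genes were called. Inppl1 was among the higher ones (0.6 ± 0.11, adjusted p = 0.00283).

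For the next 4 lists, the shares over all genes with CMA were again 19.4% called higher and 17.9% lower. Of 5 other Fc receptor genes tested, Trim21, a cytosolic IgG receptor induced by interferon, rose by 2.7 ± 0.18 with CMA, and Fcrl1 fell by 1.04. The rise of Trim21 with C-178 present was 2.6 ± 0.18, with an interaction of -0.11 (limma, adjusted p = 0.793). Of 12 tested genes on the list of other ITAM-linked receptors and adaptors, 1 rose (Clec5a, 2.77 ± 0.28) and 1 fell (Trem1, -1.3 ± 0.43). Tyrobp, the ITAM adaptor closest in role to Fcer1g, had a change of -0.31 ± 0.16 (adjusted p = 0.152). Of 8 tested ITIM receptors, the class to which Fcgr2b belongs, Lilrb4 (1.65 ± 0.16) and Cd22 (0.54 ± 0.16) rose and 3 fell, Sirpa, Siglece (-0.41) and Pilra (-0.38, adjusted p = 0.0471), the last named after its value was seen. Of 7 tested complement and integrin receptors, C5ar2 fell by 2.39 ± 0.31 and C5ar1 by 0.77 ± 0.13, and none rose. The integrin genes, named after their values were seen, did not pass, with Itgam at 0.23, Itgb2 at 0.16 and Itgax at -0.67. With C-178 alone, limma and edgeR called no list gene, 7 of the 97 had an unadjusted limma p under 0.05, and DESeq2 called 1, Clec4d. Of all 11440 genes tested, limma called 11, edgeR called 12 higher and 1 lower, and DESeq2 34 higher and 4 lower. An unadjusted limma p under 0.05 was seen for 420 of all genes.

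**Figure D4:**
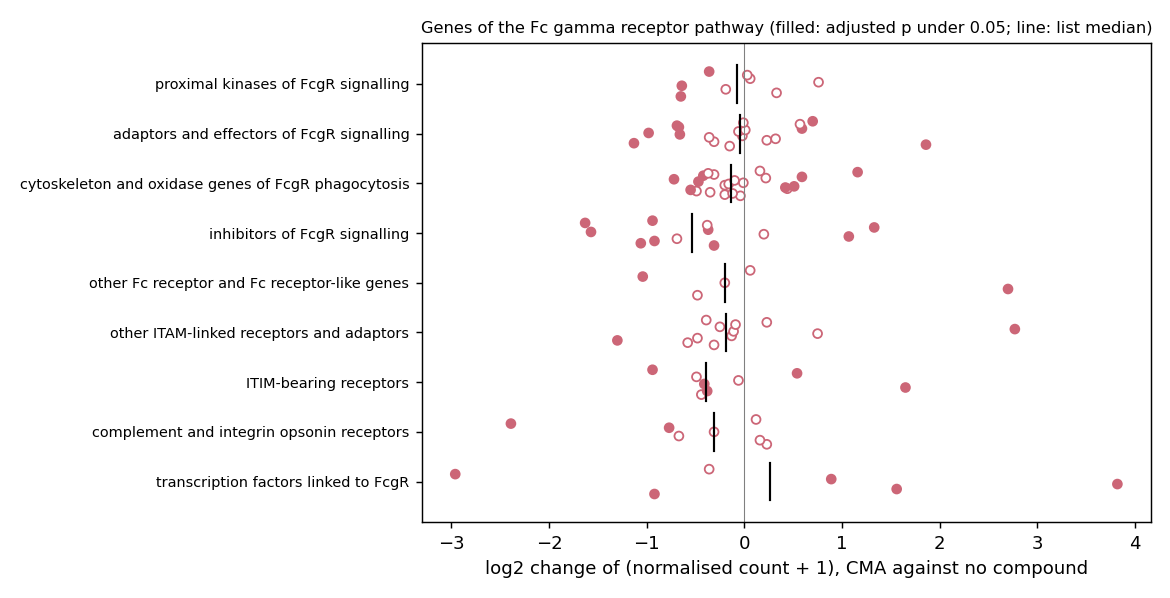
Log2 change with CMA against no compound (horizontal axis) of each tested gene of 9 pathway lists (rows), with filled points for an adjusted p under 0.05 (limma) and a line at the median of each list. The inhibitor list has the lowest median (-0.53) and the transcription factor list the highest (0.27).

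Of 6 transcription factors linked to Fc gamma receptor expression, 3 rose and 2 fell with CMA, where 19.4% of all genes were called higher and 17.9% lower. Irf1 rose by 3.82 ± 0.16 and Irf8 by 0.89 ± 0.16, and Cebpa fell by 2.96 ± 0.36. With C-178 plus CMA against CMA, 1 of the 6 was called higher and 2 lower, where 24.1% of all genes were called. Irf1 and Irf8 were lower (-0.83 ± 0.16 and -0.94 ± 0.16), beside -0.83 ± 0.13 for Fcgr4 and -0.22 ± 0.12 for Fcgr1. Cebpa went the other way, at 825 ± 401 normalised counts with both compounds and 228 ± 58.2 with CMA alone. A link of these factors to the receptor genes was not tested. For scale, Ifnb1, the interferon beta gene, had a log2 change of -4.9 ± 0.36 from CMA (1755 ± 408 normalised counts) to C-178 plus CMA (59.4 ± 22.5).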

How the data were processed

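The deposited table of the authors holds a signal per gene and library, namely read counts divided by a scaling factor per library. That the division was by size factors is inferred, as the header holds a mean and 12 columns of Cook's distances that were not used here. Per the submitters' processing notes, mm10, Bowtie2 2.2.1 and limma 3.18.13 were used. The counting tool and annotation are not named there. Dividing each library by its smallest step gave whole reads for 100% of values (tolerance 0.01), and these reads served edgeR 4.0.16 and DESeq2 1.42.0 as alternatives.

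Genes above 10 in at least 3 of 12 libraries (11440) were fitted as log2(value + 1) with limma 3.58.1 under R 4.3.3 (lmFit, eBayes with trend) over all libraries, with Benjamini-Hochberg adjustment over all tested genes and calls at adjusted p under 0.05. A fold change on this scale is understated for low genes. Ratios of members were compared by exact two-sided permutation tests. The script was tested on simulated data. The members, the gene lists and the tests were chosen with earlier results of these data known.

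As 2 unstimulated columns have the same name, libraries of that group are numbered 1, a and b. For the groups C-178 and C-178 plus CMA, deviations from the group means of same-numbered libraries had correlations of 0.45, 0.43 and 0.26, each above 0.1, so a fit with the number as a block is given where it changes a call. For CMA and C-178 plus CMA they were -0.14, 0.18 and -0.16, and for C-178 and CMA -0.04, 0.06 and -0.08. The CMA libraries thus share only a number with the other 2 groups, yet the block fit holds them under that number.

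Named were all members, up to 4 called genes of each pathway list with the smallest adjusted p under CMA, the 3 genes that followed each member most closely, called neighbours within 100 kb, and a few fixed genes; a gene that this rule names is not reported here. Lengths are from GENCODE M21.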

Additional observations from a re-analysis of the deposited data

Results flagged for a closer look

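The response of Fcgr4 to CMA differed between cells with and without C-178 by the interaction term of the model. Its log2 change was 2.32 without and 1.65 with C-178, a difference of -0.68 ± 0.18 (limma, Benjamini-Hochberg adjusted p = 0.0326). All 3 C-178 plus CMA libraries lay below all 3 CMA libraries. Without library 3 of the C-178 plus CMA group, the difference was -0.57 (adjusted p = 0.0347), and without library 2 it was -0.74 (adjusted p = 0.0085). The difference was called in 13 of 21 alternative fits, with adjusted p between 0.00609 and 0.129. It was not called after quantile normalisation (-0.39, adjusted p = 0.129), nor without any of 7 single libraries, namely each unstimulated library, C-178 libraries 2 and 3, and CMA libraries 2 and 3.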

How the results depend on the processing

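Of the counts of members called, 122 of 135 values under alternatives were within 1.5 times the count reported, and of 675 log2 changes of members 639 kept direction and side of the threshold, 8 lost and 16 gained a call, and 12 turned direction. Leaving out a library moved the members called from 1 to 3 for the combined treatment against CMA, from 2 to 4 against C-178, and from 0 to 2 for the interaction. Calls over all 11440 genes moved as well, from 597 higher and 747 lower to 2179 and 2532 against CMA. Against C-178 they ran from 1056 and 885 to 2114 and 2067, and for the interaction from 134 and 209 to 1681 and 2018. DESeq2 called 4 members against C-178, where it called 1836 of all genes higher and 1542 lower. Quantile normalisation called 4 members for CMA against no stimulation, where it called 1953 of all genes higher and 2667 lower. For the interaction it called 0 members, and 515 of all genes in the positive and 631 in the negative direction. It gave Fcgr1 a change of 0.08 for the combined treatment against CMA, and Fcer1g -0.18 for that treatment against no stimulation. Values that turned direction when a library was left out were those of Fcer1g with CMA (-0.11 to 0.07), Fcgr2b with C-178 (-0.06 to 0.05), Fcgr3 with C-178 plus CMA against C-178 (-0.5 to 0.07) and against no stimulation (-0.37 to 0.2), the Fcgr1 interaction (-0.02 to 0.14), and, against CMA, the ratio of Fcgr1 to Fcgr2b (-0.06 to 0.27) and of Fcgr3 to Fcgr2b (-0.46 to 0.15). With the replicate number as a block, C-178 plus CMA against C-178 called 3 members, Fcgr2b added at an adjusted p of 0.0491 against 0.119 on the same 9 numbered libraries without the block. The block changed no other member call, and against CMA 1 member was called with it. No paired analysis was possible with the unstimulated group because 2 of its columns carry no number.

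Genes called in the pathway lists moved with quantile normalisation, as did the calls over all 11440 genes tested. For CMA against no stimulation it called 1953 of all genes higher and 2667 lower, against 2224 and 2047 in the main fit. Among list genes it called 5 of 8 kinases and 16 of 22 cytoskeleton and oxidase genes there. It also called 4 of 5 other Fc receptor genes and 6 of 12 ITAM-linked genes. Further, 8 of 8 ITIM receptors and 5 of 7 complement and integrin receptors were called. For C-178 plus CMA it called 7 of 18 adaptors and 8 of 22 cytoskeleton genes against CMA. Of all genes, 1405 were called higher and 1303 lower there. Against C-178 it called 6 of 22 cytoskeleton genes, 4 of 8 ITIM receptors and 5 of 7 complement and integrin receptors. Of all genes, 1351 were called higher and 1892 lower in that comparison. Against no stimulation it called 7 cytoskeleton genes, 1 ITAM-linked gene and 5 complement and integrin receptors for the combined treatment. All genes gave 1168 higher and 1615 lower calls there. For the interaction it called 1 kinase, 3 cytoskeleton genes, 4 inhibitors, 2 ITIM receptors and 1 transcription factor. All genes gave 515 positive and 631 negative calls there. TMM, edgeR and DESeq2 each called 1 kinase for the interaction. Over all genes they called 477, 541 and 767 in the positive and 666, 642 and 993 in the negative direction. DESeq2 called 2 cytoskeleton genes, 6 inhibitors and 2 ITIM receptors for the interaction. It called 7 inhibitors and 2 other Fc receptor genes against CMA, and 1 ITAM-linked gene with C-178. Its calls over all genes were 1422 higher and 1646 lower against CMA, and 34 higher and 4 lower with C-178. For CMA, edgeR called 1 ITAM-linked gene, and against CMA 0 complement and integrin receptors. Of all genes, edgeR called 2235 higher and 2047 lower for CMA, and 1350 higher and 1405 lower against CMA.

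The cause of these differences was not tested. Over all genes the interaction was called for 452 genes in the positive and 685 in the negative direction, and without single libraries for as few as 134 and 209 or as many as 1681 and 2018. Genes called with C-178 alone numbered 11 by limma, and 34 higher and 4 lower by DESeq2. Quantile normalisation moved the split for the combined treatment against C-178 from 1548 higher and 1440 lower to 1351 and 1892. Depth was lowest in the CMA group, and thinning all libraries to the shallowest changed no member call.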
